A study of Caenorhabditis elegans with 11 samples.

Results

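The F-box families fbxa, fbxb and fbxc of *Caenorhabditis elegans* were followed through adult life on 2-deoxy-D-glucose (DOG), a glucose analogue that impairs glycolysis. A gene was a member when its name in the count table began with fbxa-, fbxb- or fbxc- and its counts summed over all 11 libraries came to at least 100. Of 355 genes listed under these names, 255 met the rule: 125 of 192 fbxa, 97 of 110 fbxb and 33 of 53 fbxc genes. A further 81 had 1 to 99 counts and 19 had none. The totals closest to the limit were 97, 98 and 99 counts for fbxa-73, fbxa-142 and fbxa-176, which were left out, and 106, 108 and 110 for fbxc-15, fbxa-18 and fbxa-9, which were kept.

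All libraries came from wild-type N2 worms kept at 5 mM DOG from the end of larval development. The groups differed in age and, with it, in time on DOG, and these cannot be told apart. RNA of whole worms was sequenced at 1, 5 and 10 days (3 libraries each) and at 20 days (2 libraries). Worms without DOG were not analysed here, and an effect of DOG therefore cannot be told apart from one of age. The worms were fed heat-inactivated bacteria and washed daily to remove offspring, each sample pooling many worms, fewer of them at the oldest age. The sources used here do not say whether replicates came from separate cultures, so p-values measure only the spread between these samples.

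F-box proteins are the substrate-binding subunits of SCF ubiquitin ligases. Their F-box motif binds a Skp1-like adaptor, the adaptor binds a Cullin, and the Cullin carries the RING protein that brings in the ubiquitin-conjugating enzyme. *C. elegans* has an unusually large number of F-box genes and of Skp1-related (skr) genes. Most fbxa proteins pair the F-box with an FTH domain and most fbxb proteins with another F-box-associated domain, and most of them have no assigned function. FBXA-75 and FBXA-158 are known as partners of the Cullin CUL-6 in a ligase that is induced by intracellular infection and other proteotoxic stress.

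The libraries held 23648292 to 58499127 counts on genes, and 14773 of 45461 listed genes reached 100 counts and were tested. Depth differed with age, at 23648292 to 40277713 counts at 1 day and 53042713 and 58499127 at 20 days. Summed CPM (counts scaled to library size) of 8 markers per tissue moved with age as well: those of the intestine lay at 16020 to 16710 at 1 day and at 2844 to 3074 at 20 days, those of the epidermis at 2116 to 2279 and 118.7 to 122, those of body wall muscle at 3179 to 3412 and 612.8 to 676.3, with hlh-1 without a count in any library, and the 7 neuronal markers found at 239.6 to 260.9 and 396.7 to 397.3 (3 of these 7 called higher and 2 lower). Markers of the germline lay at 2569 to 2678 and 3075 to 3086 (4 called higher and 3 lower of 8), those of oocytes at 8700 to 8963 and 13520 to 13590 (2 higher and 3 lower of 8) and those of sperm at 13.45 to 17.01 and 4.996 to 6.257. In whole worms, fewer cells of a type and less RNA per cell cannot be told apart, and the part of these shifts in the results below was not tested.

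Most members were weakly expressed. RPKM (reads per kilobase of exon, scaled to library size), the scale on which genes are compared with each other, had a median over members of 1.08 against 7.14 over all genes tested. The median total was 545 counts over the 11 libraries, and 173 members stayed under 1000 counts. Of the 255 members, 235 had a count in every library and 32 had at least 100 in every library. Since the limit of 100 counts can be passed through 1 age alone, it was counted how many members reached 100 counts without the age at which they were highest: 212 did and 43 did not. The members lie on all 6 chromosomes, with 50 fbxa genes on chromosome III and 44 on V, 56 fbxb genes on II and 30 of the 33 fbxc genes on II. In the WBcel235 annotation 17 members are pseudogenes, 19 share exon sequence with another gene on the same strand and 19 with a gene on the opposite strand. Many are close copies of each other, so that reads shared between copies may be missing or assigned to the wrong copy.

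The 3 families took different courses in their counts of called genes, a difference that was not tested as such. Most fbxb genes rose from 1 to 10 days and fell from 10 to 20 days, fbxc genes did so in smaller shares, and fbxa genes rose more often than they fell between 10 and 20 days. The sum over all fbxb members was 66.1, 65.4 and 59.5 CPM at 1 day, 134, 111 and 117 at 5 days, 226, 231 and 221 at 10 days and 144 and 126 at 20 days. Each library at 10 days thus had a higher fbxb sum than any library of another age. The fbxa sum was 702 to 723 CPM at 1 day, 904 to 938 at 5 days, 839 to 873 at 10 days and 1089 and 1043 at 20 days, and here the 20-day libraries were the highest. The fbxc sum was 226 to 234, 288 to 300, 317 to 319 and 277 and 263 CPM at the 4 ages. Per gene, the median level for fbxb was 0.26 RPKM at 1 day, 1.43 at 10 days and 0.86 at 20 days. For fbxc the same medians were 0.49, 3.39 and 2.42 RPKM, and for fbxa they were 1.09, 1.09 and 1.68 RPKM.

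**Figure D1:**
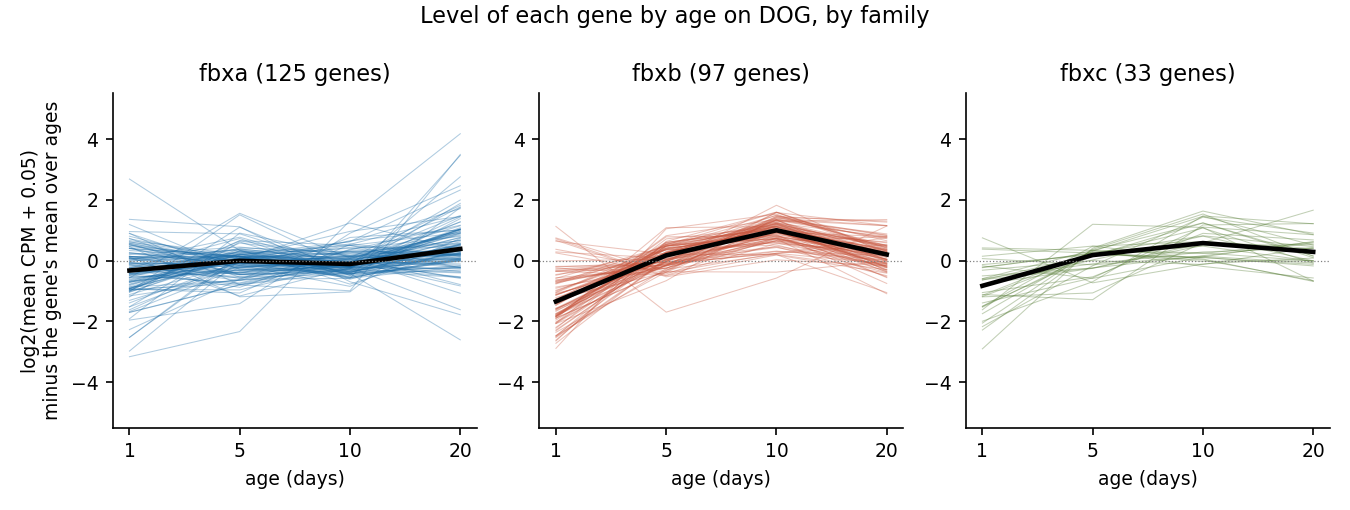
Level of every member by age, with 1 panel per family. The y axis is log2 of the mean CPM plus 0.05, minus the mean of the 4 ages for that gene, the x axis is the age in days with the ages evenly spaced, thin lines are genes and the black line is the median. The fbxb lines converge on a peak at 10 days, the fbxc median peaks there too, and the fbxa median is highest at 20 days.

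The families were also counted by the age of their highest mean level, scaled by TMM factors. Of 97 fbxb members, 87 were highest at 10 days (89.7%), 7 at 1 day and 3 at 20 days. Over all genes tested, 14.1% were highest at 10 days, which was the least frequent of the 4 ages. Of 33 fbxc members 18 were highest at 10 days (54.5%), whereas 8 of 125 fbxa members were, 63 being highest at 20 days, 29 at 1 day and 25 at 5 days. With CPM not scaled by TMM factors, 86 fbxb, 16 fbxc and 7 fbxa members were highest at 10 days, beside 11.0% of all genes. Members that reach 100 counts only through their highest age were kept because of that age, so their peak carries no test. Without that age, 86 of 97 fbxb, 98 of 125 fbxa and 28 of 33 fbxc members reach 100 counts. Of these 212 members, 100 were highest at 10 days (47.2%) and 51 at 20 days (24.1%). These peaks were not split by family. Markers of the early embryo also had their highest sum at 10 days, with 15.5 to 16.1 CPM against 11.3 to 12.9 at 1 day, 7.06 to 8.89 at 5 days and 9.37 to 9.88 at 20 days. All 8 had counts, 6 of them in every library, and their part in the fbxb peak was not tested.

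**Figure D2:**
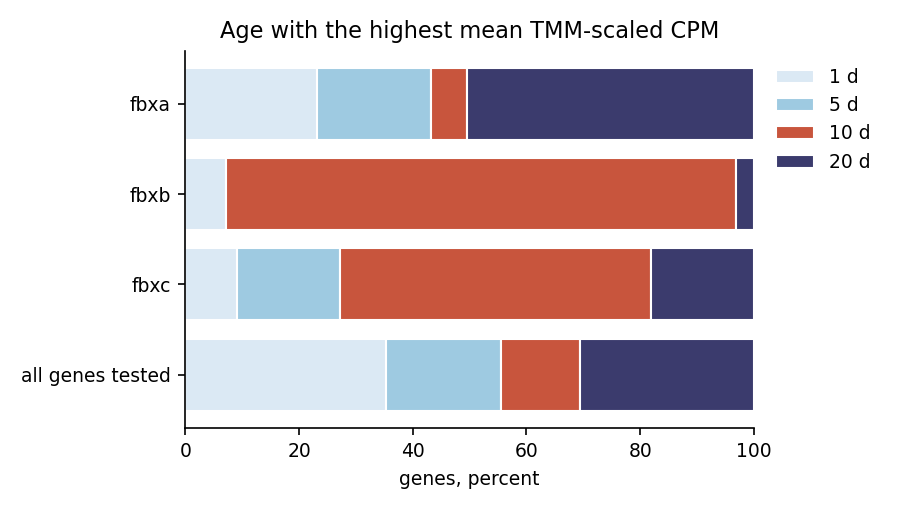
Share of genes (x axis, percent) whose mean TMM-scaled CPM was highest at 1, 5, 10 or 20 days, for the 3 families and for all genes tested. The segment for 10 days covers 89.7% of fbxb and 54.5% of fbxc genes against 6.4% of fbxa genes and 14.1% of all genes.

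Between 1 and 5 days, the first days of adult life and egg laying, members rose far more often than they fell. In the quasi-likelihood test of edgeR, with p-values adjusted over all genes after Benjamini-Hochberg and a gene called at an adjusted p under 0.01, 130 members were higher at 5 days, beside 34.5% of all genes, which is 51% of the members. Lower were 29 members (11.4%), beside 34.0% of all genes. Among the 212 members that reach 100 counts without their highest age, 114 were higher and 27 lower, with a median log2 change of 0.62. The median log2 change was 0.68 over the members, 0.67 when the 2 members without a count at 1 day were set to their bounds, and -0.01 over all genes tested. By family, 70 fbxb genes rose and 5 fell (median 1.72), 19 fbxc genes rose and 3 fell (median 0.57; 1 fell without replicate 2 or 3 of either age, and 2 without any other single library but replicate 2 of 10 days), and 41 fbxa genes rose and 21 fell (median 0.29). The fbxa share of 32.8% higher was close to that of all genes.

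From 5 to 10 days most fbxb genes went on rising. In total 85 members rose, beside 23.7% of all genes, and 29 fell, beside 24.6%. Among the 212 members that reach 100 counts without their highest age, 81 rose and 25 fell, with a median log2 change of 0.43. Of the fbxb genes 57 rose and 0 fell in the edgeR test, with 0 lower at an unadjusted p under 0.05 and 0 lower in DESeq2 as well, and their median log2 change was 0.82. Of the fbxc genes 15 rose and 3 fell (median 0.76). Of the fbxa genes 13 rose and 26 fell, with a median of -0.03.

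Between 10 and 20 days most calls were falls in fbxb and fbxc and rises in fbxa. Higher at 20 days were 48 members, beside 28.3% of all genes, and lower were 100 members, beside 28.2%. Among the 212 members that reach 100 counts without their highest age, 35 were higher and 91 lower. Fbxa genes made up 46 of the 48 rises, with 14 falls (9 without replicate 2 of 20 days) and a median log2 change of 0.45. Of the 125 fbxa members, 98 reach 100 counts without their highest age. The rises were not split in this way by family, and those of members that reach 100 counts only through 20 days carry no test. Fbxb genes made up 67 of the 100 falls, with 1 rise and a median of -0.92, and fbxc genes another 19, with 1 rise and a median of -0.37. Without their highest age, 86 of 97 fbxb and 28 of 33 fbxc members reach 100 counts. The falls were not split in this way by family either. Those of members that reach 100 counts only through 10 days carry no test. The lone risers were fbxb-14 and fbxc-57, named here because each was alone in its family. Without TMM factors the median change of all genes moved by 0.10 in this interval, and the calls over all genes went from 4176 higher and 4173 lower to 5218 higher and 2977 lower. The directions of the families were the same on that scale, with 60 fbxb genes lower and 1 higher, 15 fbxc genes lower and 1 higher, and 54 fbxa genes higher and 12 lower.

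**Figure D3:**
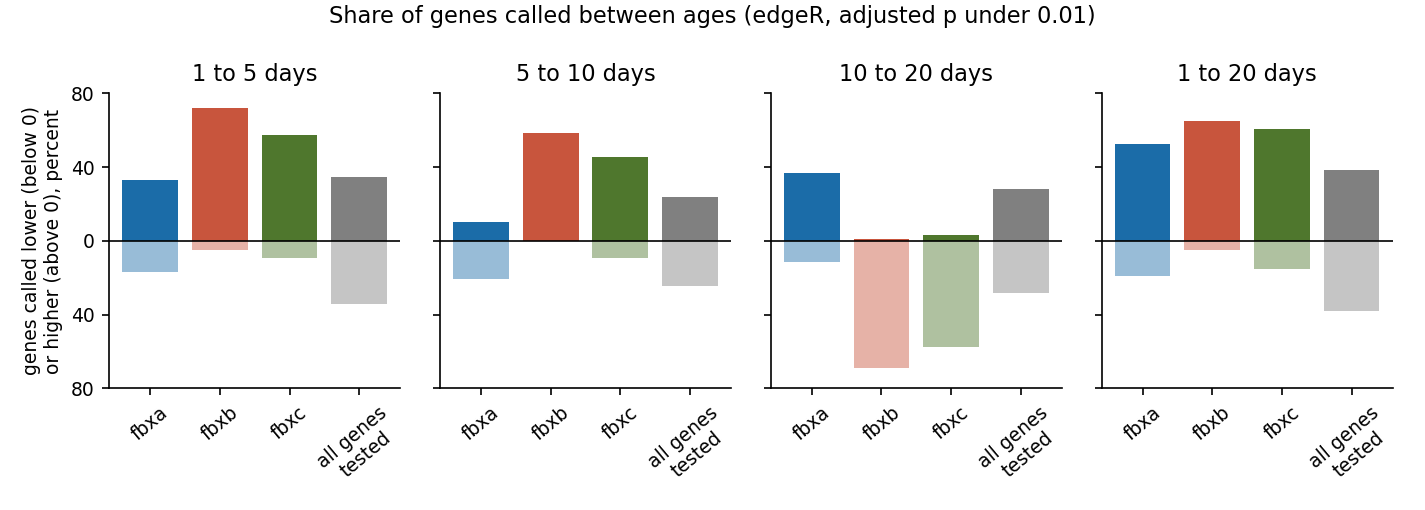
Share of genes called higher (bars above 0, full colour) or lower (bars below 0, pale) at the later age in each of the 4 comparisons, for the 3 families and all genes tested. In the comparison of 10 with 20 days, 69.1% of fbxb and 57.6% of fbxc genes were called lower, while 36.8% of fbxa genes were called higher.

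Over the whole period from 1 to 20 days all families ended higher. Called higher were 149 members, beside 38.5% of all genes, and called lower were 34, beside 38%. Some of these reach 100 counts only through 20 days, and their rise carries no test. Among the 212 members that reach 100 counts without their highest age, 123 were higher and 32 lower, with a median log2 change of 0.93. The median log2 change was 1.04 over members and -0.01 over all genes. It was 0.67 for fbxa (66 higher, 24 lower), 1.44 for fbxb (63 higher, 5 lower) and 0.95 for fbxc (20 higher, 5 lower, or 3 lower without replicate 2 of 20 days). Without TMM factors the median of all genes moved by 0.15 and their calls were 6472 higher and 4810 lower in place of 5689 and 5611. The 32 members with 100 counts in every library, of which 21 were fbxa, 1 fbxb and 10 fbxc, did not show this rise as a set: 14 were higher and 13 lower, with a median of 0.04. Over all 8057 genes that pass that filter, 3364 were higher and 3395 lower, with a median of -0.008. In the interval from 5 to 10 days the median of these 32 was -0.08, against 0.42 over all 255.

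A change with age of any shape was called for 230 members (90.2%), beside 91.4% of all genes, so members changed about as often as other genes. The order of the changes was counted next. The sequence higher, higher, lower over the 3 successive intervals was called for 40 fbxb, 10 fbxc and 1 fbxa gene, together 20.0% of the members against 2.99% of all genes tested. Calls in opposite directions within the life course were made for 66% of fbxb, 48.5% of fbxc and 20.8% of fbxa genes, against 34.3% of all genes. Across all ages, 80 members (31.4%) were classed as rising monotonically, beside 27.1% of all genes, and 16 (6.3%) as falling, beside 18.4%. For this, 1 library was drawn per age in each of 54 possible ways, with CPM not scaled by TMM factors. The rank correlation with age (Spearman's rho) was averaged over the draws, and the mean had to pass 0.75 in size. The rising class held 44 fbxa, 22 fbxb and 14 fbxc genes. With CPM scaled by TMM factors, 68 members (26.7%) were rising, beside 22.6% of all genes, and 17 (6.7%) were falling, beside 22.1%.

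Among fbxa genes the most abundant was fbxa-215 on chromosome IV, with a mean of 204 RPKM, which alone supplied 24.3% to 24.8% of the summed CPM of all members at 1 day and 17% to 17.2% at 20 days. It measured 250, 242 and 250 CPM at 1 day, 337, 324 and 323 at 5 days, 262, 259 and 273 at 10 days and 260 and 244 at 20 days. The 5-day libraries stood above all others, and those of 20 days overlapped those of both 1 and 10 days, which did not overlap each other. It rose by 0.37 ± 0.04 (log2, standard error) from 1 to 5 days (adjusted p = 1.6e-08) and fell by 0.32 ± 0.04 from 5 to 10 days (adjusted p = 2.7e-07). The change from 1 to 20 days was -0.12 ± 0.04 (adjusted p = 0.0072), a call that was lost when replicate 2 or 3 of 1 day, replicate 2 of 5 days, replicate 1 of 10 days or replicate 2 of 20 days was left out (-0.16 to -0.08 over all 11 omissions) and that turned to 0.03 without TMM factors. The next most abundant, fbxa-210 on chromosome V and fbxa-101 on I, rose once and then held their level. For fbxa-210 the libraries lay at 51.5 to 54 CPM at 1 day, 77.7 to 78.1 at 5 days, 75.9 to 77.3 at 10 days and 79.7 and 77.7 at 20 days, with a log2 change of 0.44 ± 0.04 from 1 to 20 days (adjusted p = 1.2e-09). For fbxa-101 they lay at 37.3 to 42.6, 51 to 53.5, 53.4 to 55.0 and 61.0 and 56.1 CPM, with 0.37 ± 0.06 (adjusted p = 6.8e-06).

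Among the 212 members that reach 100 counts without their highest age, fbxa-24 on chromosome II had the steepest rise from 1 to 20 days. Its counts were 17, 25 and 42 at 1 day, 45, 45 and 47 at 5 days, 792, 869 and 1005 at 10 days and 7519 and 8285 at 20 days. In CPM these were 0.719, 0.720 and 1.04, then 1.63, 1.4 and 1.5, then 20.2, 19.5 and 18.8, and finally 142 and 142. No 2 ages overlapped, and each step was called. The log2 change was 0.78 ± 0.17 from 1 to 5 days (adjusted p = 4.4e-04), 3.69 ± 0.09 from 5 to 10 days (1.0e-16) and 2.76 ± 0.05 from 10 to 20 days (8.1e-18), which adds up to 7.22 ± 0.08 from 1 to 20 days (4.5e-22). In RPKM the gene went from a mean of 0.50, below the family median of 1.09, to 85.1, above the 59.4 RPKM of fbxa-210. With fbxa-107 it was 1 of 2 members called higher in all 3 successive intervals, a sequence called for 0.78% of the members and 3.66% of all genes.

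The opposite course was that of fbxa-72 on chromosome V. It measured 29.1, 31.4 and 33.0 CPM at 1 day, 6.47, 6.09 and 5.65 at 5 days, 3.35, 3.89 and 3.53 at 10 days and 0.811 and 0.684 at 20 days. Every age lay below the one before it, without overlap. The log2 change from 1 to 20 days was -5.54 ± 0.12 (adjusted p = 2.1e-18), of which -2.41 ± 0.08 fell between 1 and 5 days and -2.37 ± 0.15 between 10 and 20 days. Apart from it, fbxc-32 was the only member called lower in all 3 intervals, and its call from 1 to 5 days (-0.17 ± 0.05, adjusted p = 0.0049) was lost without replicate 2 or 3 of either age, at -0.20 to -0.14 over all omissions. Among fbxa genes with at least 50 counts in every 1-day library, the next largest falls were those of fbxa-216, by 1.88 ± 0.14 from 1 to 20 days (adjusted p = 3.3e-10), and of fbxa-203, annotated as a pseudogene, by 1.66 ± 0.10 (adjusted p = 2.5e-11). For fbxa-216 the 1-day libraries held 10.4, 6.94 and 7.57 CPM and all later ones 2.34 to 3.32, and no change after 5 days was called, whereas fbxa-203 went from 11.6 to 12.9 CPM at 1 day through 8.08 to 9.87 and 6.92 to 8.47 to 4.39 and 4.22 at 20 days. Fbxa-51 on chromosome III was highest at 5 days, with 4.16, 3.39 and 3.70 CPM against 1.95 to 2.58 at 1 day, 1.58 to 1.96 at 10 days and 1.57 and 1.42 at 20 days. It rose by 0.70 ± 0.14 and then fell by 1.04 ± 0.14 (adjusted p = 1.7e-04 and 2.7e-06).

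**Figure D4:**
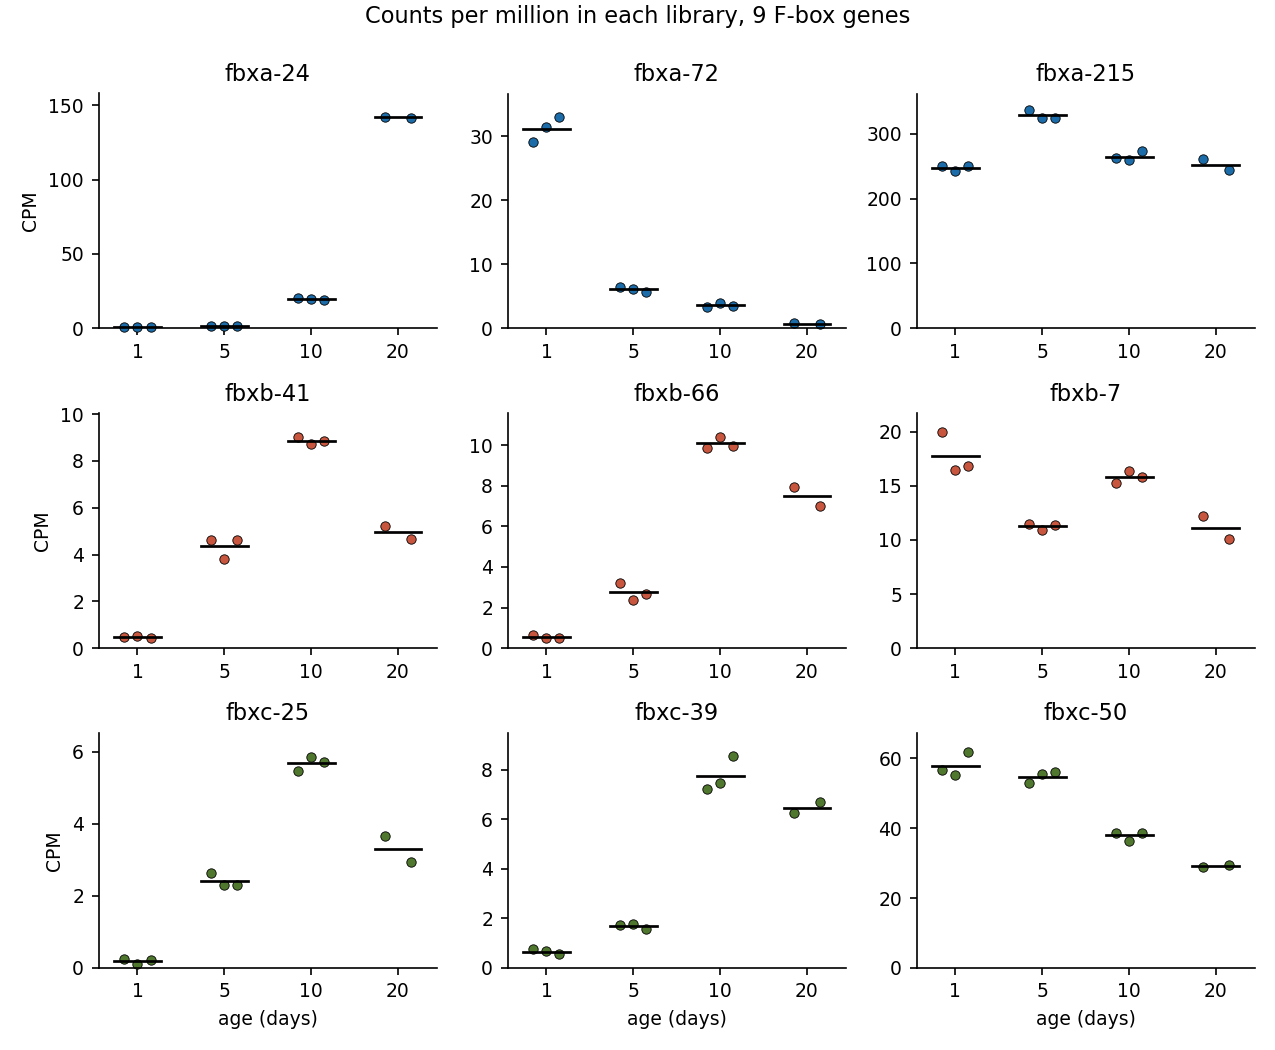
CPM (y axis, linear, starting at 0, with its own scale in each panel) by age in days for 9 members. Points are libraries (3 at 1, 5 and 10 days, 2 at 20 days) and bars are means. Fbxa-24 climbs to 142 CPM, fbxa-72 falls from 31.1 to 0.747 CPM, fbxb-41, fbxb-66, fbxc-25 and fbxc-39 are highest at 10 days, and fbxb-7 and fbxc-50 do not share that course.

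The CUL-6 partners fbxa-75 and fbxa-158 were almost without counts until 10 days and present at 20 days. Both are among the 43 members that reach 100 counts only through their highest age, here 20 days, so the rise to that age is given as a description, without a test. Fbxa-75, on chromosome III, had 0, 0 and 0 counts at 1 day, 1, 1 and 2 at 5 days, 2, 2 and 0 at 10 days and 106 and 92 at 20 days. In CPM the 20-day libraries held 2.00 and 1.57, and none of the 9 younger libraries held more than 0.0639. The fitted log2 change from 10 to 20 days was 5.68 ± 0.41 (5.02 without replicate 3 of 10 days), and against the limit of 3 counts over the 1-day libraries the gene was at least 58.4-fold higher at 20 days. Fbxa-158, on chromosome II, had 0, 1 and 1 counts at 1 day, 4, 4 and 7 at 5 days, 7, 7 and 9 at 10 days and 191 and 205 at 20 days. It held 3.60 and 3.50 CPM at 20 days against 0.157 to 0.179 at 10 days, with no overlap, and the fitted log2 change was 4.28 ± 0.21. The ratio of the pooled CPM at 20 days to that at 1 day was 175, with an exact 95% interval from 48.2 to 1451 that covers counting error only. These were the largest rises between 10 and 20 days of any member with at least 50 counts in both 20-day libraries.

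On a short list of other genes of this ligase and of the response it belongs to, most were higher at 20 than at 10 days as well. Further genes of that response were not examined. The list was chosen with earlier results of these data known, so its shares are given as a description. Of 9 genes on that list (cul-6, skr-3, skr-4, skr-5, rcs-1, pals-5, pals-22, pals-25 and eol-1), 8 were higher and 0 lower in the edgeR test, beside 28.3% and 28.2% of all genes, with 9 higher and 0 lower at an unadjusted p under 0.05. Pals-5 is among the 8 and reaches 100 counts only through 20 days, so its call carries no test. The median log2 change of the list was 1.31 against 0.01 for all genes tested. Some had moved before: 2 were higher and 2 lower from 1 to 5 days, and 4 were higher from 5 to 10 days, among them cul-6 by 0.31 ± 0.10 (adjusted p = 0.0099) and eol-1, which rose by 3.43 ± 0.32 and then 1.80 ± 0.14 in these intervals. Cul-6, the Cullin itself, held 4.39, 4.27 and 4.44 CPM at 10 days and 16.4 and 14.8 at 20 days, and its 1-day and 5-day libraries lay at 3.32 to 4.10. Its log2 change from 10 to 20 days was 1.73 ± 0.08 (adjusted p = 6.8e-13). Of its Skp1-related adaptors, skr-5 rose by 2.27 ± 0.21, skr-3 by 0.68 ± 0.06 and skr-4 by 0.50 ± 0.08 (adjusted p of 2.0e-08, 1.5e-08 and 2.2e-05). Rcs-1, the RING subunit, rose by 1.3 ± 0.08 (adjusted p = 1.3e-10), from 5.84 to 6.94 CPM at 10 days to 16.8 and 17.3. Pals-5, whose promoter is a standard reporter of the intracellular pathogen response, went from 0.281, 0.157 and 0.187 CPM at 10 days to 7.69 and 8.75 at 20 days. Its fitted log2 change of 5.21 ± 0.22 is given as a description, without a test. Eol-1, a decapping exonuclease homologue induced in the same response, went from 3.76 to 4.23 CPM to 49.3 and 46.7 (3.46 ± 0.08, adjusted p = 4.0e-17). Of the paired regulators, pals-22 rose by 0.42 ± 0.11 (adjusted p = 0.0023), whereas for pals-25 the change of 0.26 ± 0.12 was not called (adjusted p = 0.064).

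**Figure D5:**
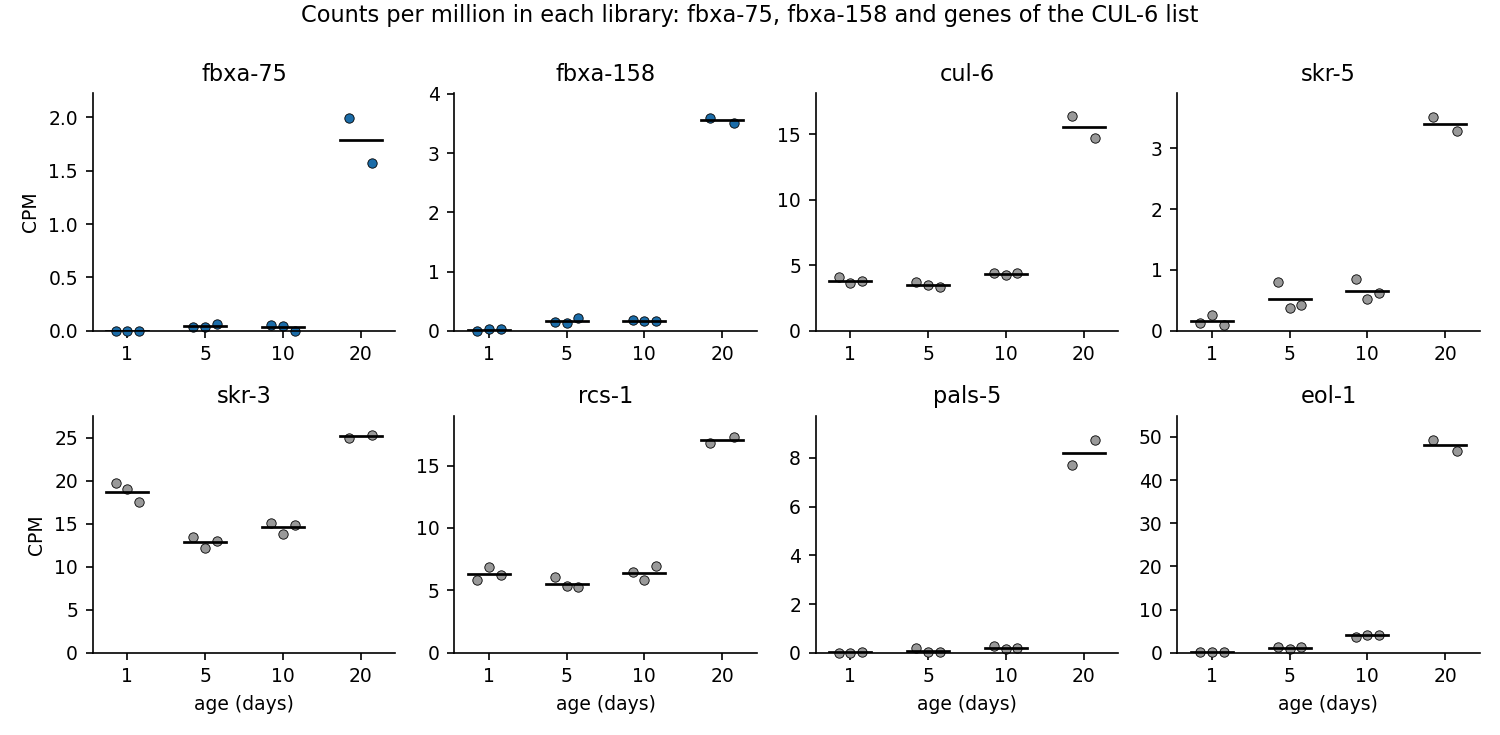
CPM (y axis, linear, starting at 0, with its own scale in each panel) by age in days for fbxa-75 and fbxa-158 (blue) and 6 genes of the CUL-6 list (grey). Points are libraries and bars are means. In all 8 panels both 20-day libraries lie above every younger library, while skr-3 is also high at 1 day.

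Fbxa-158 lies in a group of 5 neighbouring fbxa genes on chromosome II, with fbxa-162, fbxa-163, fbxa-164 and fbxa-165, and all 5 were higher at 20 than at 1 day. Fbxa-158, fbxa-164 and fbxa-165 reach 100 counts only through their 20-day libraries, so their rise carries no test. Fbxa-165 had 0 counts in the 3 libraries at 1 day, 1, 1 and 2 at 5 days, 2, 4 and 6 at 10 days and 55 and 62 at 20 days, which is at least 34.5-fold higher at 20 than at 1 day. Its fitted log2 change from 10 to 20 days was 3.44 ± 0.32. From 1 to 5 days 4 of the 5 were called higher, all but fbxa-165. For fbxa-158 that change was 2.81 ± 0.69, a call that was lost under an alternative. Fbxa-163 had 0, 3 and 4 counts at 1 day, 22, 32 and 23 at 5 days, 52, 58 and 70 at 10 days and 240 and 245 at 20 days, and fbxa-162, a pseudogene in the annotation, had 2, 7 and 4, then 29, 41 and 41, then 22, 27 and 51, and 61 and 67. From 10 to 20 days the 5 genes changed by 0.56 to 4.28 on the log2 scale. Fbxa-75 lies in another row of 11 fbxa genes on chromosome III, of which 6 were higher and 1 lower at 20 than at 1 day. Of the 6, fbxa-75, fbxa-35 and fbxa-36 again reach 100 counts only through 20 days. From 10 to 20 days fbxa-50, fbxa-79 and fbxa-37 in that row were called higher, by 2.08, 0.97 and 1.22 on the log2 scale. Fbxa-75, fbxa-35 and fbxa-36 changed by 5.68, 1.90 and 2.29, which carries no test, and the remaining 5 were not called. Fbxa-14 in the same row fell from 1 to 20 days by 1.14, so neighbours did not all move together.

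Of the fbxb family, fbxb-7 on chromosome V was the most abundant, with a mean of 13.3 RPKM, and it did not follow the family. It measured 20.0, 16.5 and 16.8 CPM at 1 day, 11.5, 10.9 and 11.4 at 5 days, 15.3, 16.4 and 15.8 at 10 days and 12.2 and 10.1 at 20 days. The 1-day libraries were the highest, and the gene alternated down, up and down by -0.69 ± 0.08, 0.49 ± 0.08 and -0.61 ± 0.08 (adjusted p of 2.1e-07, 2.4e-05 and 2.2e-06). Fbxb-41 on chromosome II had the most frequent fbxb sequence of calls (higher, higher, lower), but a larger first rise than most. It held 0.465, 0.519 and 0.422 CPM at 1 day, 4.62, 3.79 and 4.63 at 5 days, 9.04, 8.72 and 8.84 at 10 days and 5.22 and 4.68 at 20 days. The 10-day libraries stood above all others and the 1-day libraries below all others. The changes were 3.17 ± 0.16, 1.02 ± 0.09 and -0.94 ± 0.09 in turn (adjusted p of 2.6e-12, 1.6e-08 and 4.0e-08). Fbxb-66 on chromosome I went from 0.634, 0.519 and 0.521 CPM at 1 day through 3.22, 2.39 and 2.68 at 5 days to 9.89, 10.4 and 9.96 at 10 days and 7.94 and 7.03 at 20 days. It ended 3.61 ± 0.15 above its start on the log2 scale (adjusted p = 3.8e-14) after a fall of 0.54 ± 0.09 from 10 to 20 days.

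The largest fbxb rises from 1 to 20 days, among genes with at least 50 counts in both 20-day libraries, were those of fbxb-70 (4.38 ± 0.31), fbxb-102 (4.18 ± 0.37) and fbxb-71 (3.90 ± 0.26), with adjusted p of 1.6e-10, 3.6e-09 and 6.7e-11. All 3 had few counts at 1 day: 2, 2 and 6 for fbxb-70, 7, 2 and 2 for fbxb-102 and 3, 5 and 5 for fbxb-71, against 107 to 149 in their 20-day libraries. Their order is not firm, since fbxb-102 rose by 5.20 when replicate 1 of 1 day was left out. They reached their level by 10 days, at 1.94 to 2.91 CPM, and their 10-day and 20-day libraries overlapped. With the same minimum in the 10-day libraries, the fall after 10 days was steepest for fbxb-8 on chromosome I, which had 2, 0 and 5 counts at 1 day, 15, 12 and 11 at 5 days, 55, 65 and 114 at 10 days and 28 and 30 at 20 days. Its log2 changes were 2.47 ± 0.57, 2.00 ± 0.28 and -1.79 ± 0.26 (adjusted p of 7.1e-04, 6.1e-06 and 9.2e-06), the first of which was 1.88 without replicate 2 and 3.45 without replicate 3 of 1 day, and in CPM the 20-day libraries lay below all 10-day libraries and overlapped those of 5 days. Fbxb-67, its neighbour, fell by 1.86 ± 0.12 from 1 to 20 days (adjusted p = 4.5e-11), from 5.41, 5.59 and 5.19 CPM to 1.66 and 1.62, most of it between 10 and 20 days. Fbxb-14 ran against the family in the first and the last interval, with 21, 26 and 28 counts at 1 day, 3, 3 and 0 at 5 days, 9, 8 and 11 at 10 days and 38 and 50 at 20 days. It fell by 3.52 on the log2 scale from 1 to 5 days and rose by 1.83 from 10 to 20 days.

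The fbxb course was seen on each chromosome with several members. On each of the 5 chromosomes with 7 or more fbxb members the median log2 change was above 0 from 1 to 5 days (0.89 on III to 2.35 on V) and below 0 from 10 to 20 days (-0.79 on IV to -1.02 on III). On chromosome V, 12 of 15 fbxb genes rose from 1 to 5 days and 13 fell from 10 to 20 days, while of the 44 fbxa genes of that chromosome 19 rose and 8 fell in these intervals. Over all genes tested on chromosome V, 31.6% rose and 28.4% fell in these intervals, against 80% and 86.7% of its fbxb genes and 43.2% and 18.2% of its fbxa genes. In a row of 9 genes on chromosome II that mixes both families (fbxc-22, fbxc-21, fbxc-26, fbxb-47, fbxb-25, fbxb-26, fbxb-17, fbxb-18 and fbxb-19), all 9 rose from 1 to 5 days, all 9 were highest at 10 days and 6 fell from 10 to 20 days. The row of fbxb-60, fbxb-61, fbxb-62 and fbxb-63 on chromosome V rose and fell as a whole, with 4 of 4 called higher from 1 to 5 days and 4 of 4 called lower from 10 to 20 days. The row of fbxb-95, fbxb-96, fbxb-97 and fbxb-98 on chromosome II differed at the start: none of the 4 was called higher from 1 to 5 days, 1 was called lower, and 3 rose from 5 to 10 days. Over all genes tested, 34.5% rose from 1 to 5 days, 23.7% rose from 5 to 10 days and 28.2% fell from 10 to 20 days. Of the 97 fbxb members, 70 rose, 57 rose and 67 fell in these intervals. Most fbxb and fbxc members were highest at 10 days, the least frequent age over all genes tested. A difference of these rows from their families was not tested.

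Of the 3 most abundant fbxc members, fbxc-50 and fbxc-32 fell over the 20 days and fbxc-44 was not called. Fbxc-44, with a mean of 63.6 RPKM the highest, measured 51.6, 52.6 and 54.8 CPM at 1 day, 73.9, 75.6 and 73.0 at 5 days, 59.0, 61.6 and 62.8 at 10 days and 63.4 and 61.0 at 20 days. Its 5-day libraries were the highest, after a rise of 0.44 ± 0.04 (adjusted p = 1.2e-08), and the change from 1 to 20 days was 0.08 ± 0.04, which was not called. That last change was called without TMM factors, at 0.23. Fbxc-50 held 56.6, 55.2 and 61.9 CPM at 1 day, 52.9, 55.4 and 56.1 at 5 days, 38.8, 36.3 and 38.8 at 10 days and 28.9 and 29.4 at 20 days. It fell by 1.14 ± 0.05 from 1 to 20 days (adjusted p = 3.2e-13), and its 1-day and 5-day libraries overlapped. Fbxc-32 fell by 1.19 ± 0.06 (adjusted p = 4.0e-13), from 32.4 to 34.2 CPM at 1 day to 16.7 and 15.8 at 20 days, without overlap at any step. Fbxc-43 fell by 1.00 ± 0.18 (adjusted p = 3.9e-05), from 3.17 to 3.77 CPM to 1.58 and 2.21.

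Among the scarce fbxc genes, fbxc-25 had the largest rise from 1 to 20 days, by 3.92 ± 0.23 (adjusted p = 6.5e-12). It held 0.254, 0.115 and 0.223 CPM at 1 day, 2.64, 2.30 and 2.30 at 5 days, 5.47, 5.87 and 5.71 at 10 days and 3.66 and 2.94 at 20 days. The log2 changes were 3.58 ± 0.24, 1.23 ± 0.12 and -0.89 ± 0.11 (adjusted p of 1.3e-10, 4.7e-08 and 1.5e-06), and no 2 ages overlapped. Fbxc-29 followed the same course, from 0.423 to 0.521 CPM through 1.52 to 2.38 and 6 to 6.59 to 4.86 and 3.78, and rose by 3.02 ± 0.20 from 1 to 20 days (adjusted p = 5.8e-11). Fbxc-39 and fbxc-40, near each other on chromosome II, rose mainly between 5 and 10 days, by 2.19 ± 0.12 and 2.51 ± 0.14 (adjusted p of 1.1e-11 and 1.5e-11). Fbxc-40 held 1.56 to 1.78 CPM at 1 day, 0.964 to 1.88 at 5 days, 8.14 to 8.32 at 10 days and 9.01 and 8.02 at 20 days. Its 10-day and 20-day libraries overlapped, so that it did not take part in the fall after 10 days.

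Not called in any of the 4 comparisons were 27 members (10.6%), beside 7.62% of all genes, and 18 of them were fbxa genes. The most abundant of these were fbxa-83, fbxa-4 and fbxa-13. Fbxa-83 measured 6.54 to 7.91 CPM at 1 day, 7.05 to 7.24 at 5 days, 8 to 8.84 at 10 days and 8.41 and 7.11 at 20 days, and its log2 change from 1 to 20 days was -0.03 ± 0.09 (adjusted p = 0.79). For fbxa-4 that change was 0.31 ± 0.18 and for fbxa-13 it was -0.22 ± 0.18, with few counts in either gene (28 to 140 and 37 to 108 per library). The change of fbxa-4 from 10 to 20 days was called at 0.67 without replicate 2 of 20 days and at 0.60 without TMM factors.

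The partners of F-box proteins gave a background for the families. The abundant adaptors skr-1 and skr-2, orthologous to Skp1, rose by 0.25 ± 0.04 and 0.14 ± 0.04 from 1 to 20 days, and cul-1, the Cullin of the SCF complex, by 0.23 ± 0.04. Of 20 Skp1-related genes tested, 6 rose (30%) and 3 fell (15%) from 1 to 5 days, beside 34.5% and 34.0% of all genes. From 5 to 10 days 9 rose (45%) and 1 fell (5%), beside 23.7% and 24.6%, and from 10 to 20 days 3 rose (15%) and 11 fell (55%), beside 28.3% and 28.2%. The 3 risers in the last interval were skr-3, skr-4 and skr-5, which are on the CUL-6 list as well. Those that fell included skr-7 (-1.06 ± 0.04), skr-8 (-1.09 ± 0.10), skr-9 (-0.90 ± 0.10) and skr-10 (-1.06 ± 0.11), which are close relatives of each other, and skr-14 (-0.85 ± 0.08). For skr-7 the mean level was 53.6, 58.8, 85.8 and 44.1 CPM at 1, 5, 10 and 20 days, highest at 10 days as in most fbxb genes. Of 15 genes of the SCF core and its regulators, 10 were higher (66.7%) and 3 lower (20%) at 20 than at 1 day, beside 38.5% and 38% of all genes, led by cand-1, an exchange factor of F-box subunits, with 1.05 ± 0.04, and closed by ned-8, the ubiquitin-like modifier of Cullins, with -0.87 ± 0.05.

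Other families of substrate adaptors were counted for comparison. Of 60 MATH and BATH genes tested, the BATH proteins among them being substrate adaptors of CUL-3 ligases, 26 rose (43.3%) and 13 fell (21.7%) from 1 to 5 days, beside 34.5% and 34.0% of all genes. From 5 to 10 days 9 rose (15%) and 11 fell (18.3%), both shares below the 23.7% and 24.6% of all genes, and from 10 to 20 days 14 rose (23.3%) and 23 fell (38.3%), beside 28.3% and 28.2%. Their median log2 changes were 0.26, -0.09 and -0.17. Of 10 F-box genes with names of their own, such as lin-23, sel-10 and fog-2, 8 rose and 1 fell from 1 to 5 days, 3 rose and 3 fell from 5 to 10 days, and 2 rose and 4 fell from 10 to 20 days, which is 80% and 10%, 30% and 30%, and 20% and 40% beside the same shares of all genes. All but mfb-1, a muscle F-box gene that rose by 2.21 ± 0.07 from 1 to 20 days, stayed within 0.77 of their 1-day level on the log2 scale. The difference between these genes and fbxb was not tested.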

How the data were processed

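The deposited file holds read counts per gene that the authors made from single reads of 50 bases with TopHat 1.4.1 on the WS220 genome and HTSeq; strand handling is not given in the sources used here. The groups are the 4 ages in the labels, and replicate libraries differed by more than sampling noise (chi-square statistics of 5.08 to 20.4 times their degrees of freedom). The counts were tested with edgeR 4.0.16 (TMM factors of 0.946 to 1.076, quasi-likelihood test, the 4 ages in 1 fit, Benjamini-Hochberg over 14773 genes with 100 or more counts, threshold 0.01), and the test was checked on simulated data. RPKM used exon lengths from the WBcel235 annotation, also used for biotype and neighbours, and coordinates are not given since the builds differ. A row of neighbours has at most 2 other genes between members and at least 4 members. For a group without a count, a limit of 3 counts over its libraries was used. Members, gene lists and markers were chosen with earlier results of these data known. Of the list names, 9 were matched through RefSeq symbols.

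Genes named were, per family, the 3 of highest mean RPKM and the largest rises and falls from 1 to 20 days (up to 3 each), over the families the 2 largest rises and falls per interval and the 3 largest opposite changes (given 50 or more counts in each library at the upper age, and ages that did not overlap), the 3 most abundant without a call, and fbxa-75 and fbxa-158. Other members named were chosen after their values were seen. Intervals have a level of 95% and cover counting error only. DESeq2 1.42.0, other scalings and filters, fits of 2 ages, fits without each library and a replicate block were alternatives. R 4.3.3, Python 3.11.15, scipy 1.17.1 and matplotlib 3.10.9 were used.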

Additional observations from a re-analysis of the deposited data

How the results depend on the processing

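Counts of members called over the 3 families together, in each direction and comparison, stayed within 1.5 times under DESeq2, DESeq2 size factors, library size, no filter, 2-age fits, the replicate block and each left-out library. Single families moved more: fbxc genes lower from 1 to 5 days went from 3 to 1 with DESeq2, library size or without replicate 2 or 3 of either age, those lower from 1 to 20 days from 5 to 3 with library size or without replicate 2 of 20 days, and fbxa genes lower from 10 to 20 days from 14 to 9 without the latter. Leaving out 1 library gave 118 to 129 higher from 1 to 5 days, 73 to 86 from 5 to 10 days, and 42 to 50 higher and 75 to 103 lower from 10 to 20 days. The filter of 100 counts in every library left 32 members, with 21 higher, 9 lower and a median of 0.24 from 1 to 5 days, 6, 10 and -0.08 from 5 to 10 days, 6, 14 and -0.13 from 10 to 20 days, and 14, 13 and 0.044 from 1 to 20 days, and 31 changed at any age, since it drops members low at some age. Of the 8057 genes it left, 3093 were higher and 2964 lower from 1 to 5 days, and 2513 and 2592 from 5 to 10 days. The numbers were 2405 and 2450 from 10 to 20 days, and 3364 and 3395 from 1 to 20 days. Without TMM factors the member median was -0.19 from 10 to 20 days and 1.19 from 1 to 20 days. The 212 members that reach 100 counts without their highest age, an alternative chosen after seeing the data, gave -0.37 from 10 to 20 days. At a mean rho past 0.9, 30 members rose and 8 fell monotonically.

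Of 2076 alternative values of named genes, 31 changed sign, 1 of them for a called change. Without TMM factors, signs turned for fbxa-215 (0.027) and fbxa-83 (0.12) from 1 to 20 days, fbxa-83 from 1 to 5 days (0.008), and fbxa-210 (0.038), fbxc-44 (0.024), fbxb-70 (0.055) and fbxc-40 (0.046) from 10 to 20 days. From 10 to 20 days fbxa-101 gave -0.02 with DESeq2 size factors and DESeq2 and -0.009 without a filter. Leaving out 1 library gave, from 1 to 5 days, -0.427 to 0.005 for fbxc-40, -0.078 to 0.018 for fbxa-83 and -0.219 to 0.078 for fbxa-4; from 5 to 10 days, -1.004 to 0.112 for fbxa-75, -0.094 to 0.057 for fbxa-216, -0.101 to 0.075 for fbxb-67, -0.15 to 0.312 for fbxa-158 and -0.005 to 0.245 for fbxa-13; from 10 to 20 days, -0.041 to 0.068 for fbxa-101, -0.151 to 0.063 for fbxb-70, -0.136 to 0.019 for fbxc-40 and -0.095 to 0.139 for fbxa-13; and from 1 to 20 days, -0.143 to 0.085 for fbxa-83. Calls lost under an alternative were those of fbxa-215 from 1 to 20 and 10 to 20 days, fbxc-32 and fbxa-158 from 1 to 5 days and fbxc-39 from 10 to 20 days. Calls gained were those of fbxa-203 and fbxc-43 from 5 to 10 days, fbxc-50 from 1 to 5 days, fbxc-44 from 1 to 20 days and fbxa-4, otherwise called in no comparison, from 10 to 20 days (0.32 to 0.67 over single omissions, called without replicate 1 of 1 day or replicate 2 of 20 days and at 0.60 without TMM factors).

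Replicates with the same number correlated at -0.137 to 0.171 in their deviations from the group means, so the numbers pair nothing. With the replicate block, members numbered 126 higher from 1 to 5 days and 98 lower from 10 to 20 days, and fbxb-70 changed by 0.006 from 10 to 20 days.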
